A study of Mus musculus with 8 samples.

Results

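The transcriptome after Cre reached a T cell leukemia with floxed Lef1 was read from 4 arrays of the 8 in the series. They were chosen by their titles, which name 2 arrays of the E2a-/-Lef1F/F leukemia line transduced with MigR1 and 2 of the same line transduced with MigR1-Cre. MigR1 is a retrovirus that makes GFP, and MigR1-Cre makes the recombinase Cre as well. The RNA came from GFP+ cells of FVB/NJ background 72 h after transduction, and the animals' ages are not given. All 8 arrays come from leukemias that lack E2a, and in the Lef1F/F line both Lef1 alleles are floxed, so that Cre can delete them. The other 4 arrays are of an E2a-/- line with intact Lef1, 2 with each virus. They enter the estimate of the spread in every test and the test of the difference between the lines, and their own values are given side by side. There was 1 line per genotype, and the arrays of a group are not said to come from separate cultures, so p-values measure a spread that may be technical. A retrovirus field in the labels disagrees with the titles for the Lef1F/F MigR1 arrays, giving MigR1-Cre, and for the E2a-/- arrays with Cre, giving MigR1. The titles and matching source names were followed. Lef1 is intact in the E2a-/- line, so its level does not check the labels of those arrays. Arrays were numbered 1 and 2 within a group in title order, and pair 1 and pair 2 below are the first MigR1 array with the first MigR1-Cre array and the second with the second. The labels do not say what, if anything, the arrays of a pair share.

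LEF1 and its relative TCF1 are high mobility group proteins that bind DNA and recruit partners, including beta-catenin when Wnt signaling is active. In the thymus they act in T lineage specification and in the passage through the double negative and double positive stages. E2a encodes E proteins, which bind DNA as dimers and are held in check by the Id proteins.

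Intensities are RMA values on a linear scale, in arbitrary units, with array medians between 88.9 and 91.0 across the 8 arrays. With 2 arrays a group, precision is limited by their number. Lef1 was read first, since it checks the titles. Its brighter probe set gave 6918 and 6126 in the MigR1 arrays and 1903 and 1678 in the MigR1-Cre arrays. The dimmer one gave 1485 and 1262 with MigR1 and 236 and 237 after MigR1-Cre. Both MigR1-Cre arrays lay far below both MigR1 arrays, and the log2 differences in pair 1 and pair 2 were -2.66 and -2.41 for the dimmer probe set. Whether these probes lie inside the floxed part is not known here. The label of a T cell leukemia was checked against T lineage markers. Of 18 measured, 16 were above 2 times the median intensity in all 4 arrays, among them Cd3d, Thy1, Lat and Bcl11b, and Cd5 and Cd4 were not. Their summed intensity was 50688 and 46712 with MigR1 and 53506 and 48754 after MigR1-Cre, and 0 of 18 passed the limma test, with 4 at an unadjusted p under 0.05. In bulk RNA of this kind, fewer cells of a type and less RNA per cell cannot be told apart.

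After MigR1-Cre, 47 named genes fell and 13 rose (limma on log2 intensity, Benjamini-Hochberg adjusted p under 0.05 over 45037 probe sets). These are 0.258% and 0.0715% of the 18193 genes named on the array. At the level of probe sets 75 passed, which is 0.167% of all. The groups did not overlap at any of the 75, where 29.1% of all probe sets showed no overlap. The median size of the 75 changes was 0.694 on the log2 scale, and 15 fell and 1 rose by more than 2-fold. The test borrowed its spread from all 8 arrays, and limma on the 4 Lef1F/F arrays alone called 0 probe sets, with 1343 at an unadjusted p under 0.05.

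**Figure D1:**
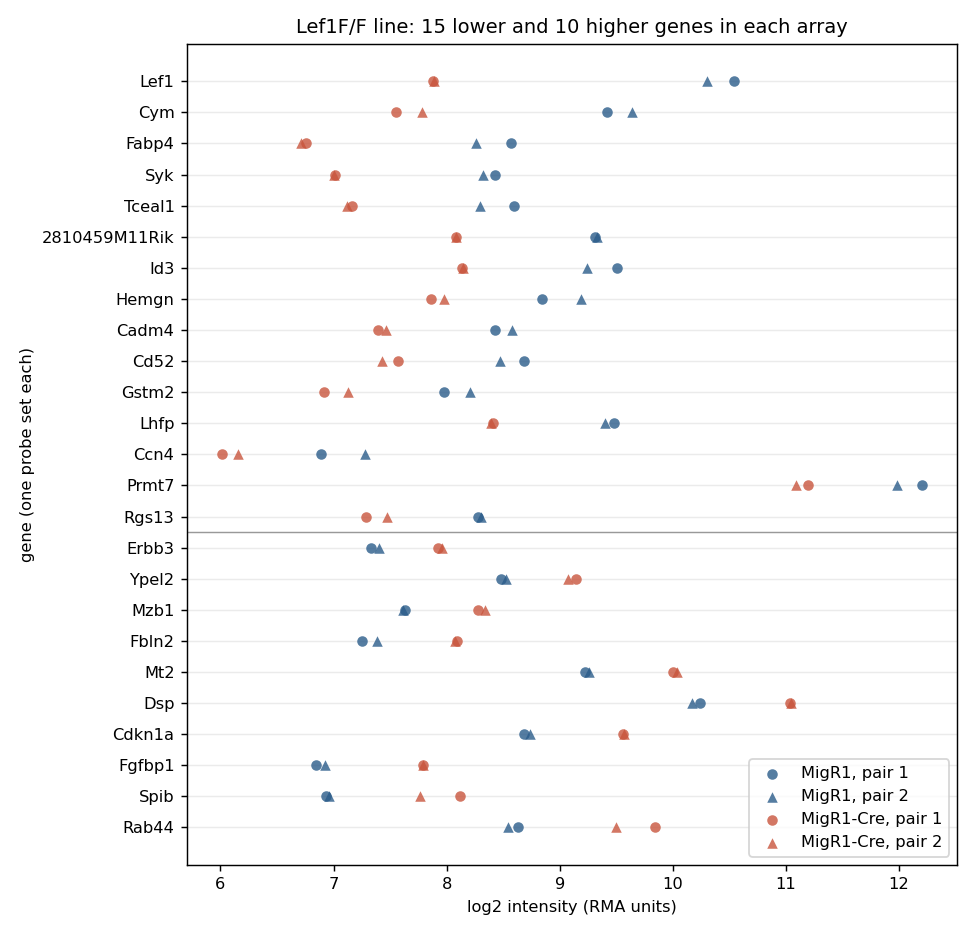
log2 intensity (RMA units, horizontal axis) of the 15 genes with the largest falls and the 10 with the largest rises among named genes in the Lef1F/F line, 1 probe set each. Blue marks are MigR1 arrays and red marks MigR1-Cre arrays, with circles for pair 1 and triangles for pair 2. In every row the 2 red marks lie on the same side of the 2 blue marks, and the difference between group means runs from -2.54 for Lef1 to 1.09 for Rab44.

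Cym, which encodes the milk-clotting protease chymosin, gave 682 and 795 in the MigR1 arrays and 187 and 220 in the MigR1-Cre arrays. Fabp4, a fatty acid binding protein best known from adipocytes and macrophages, gave 379 and 306 against 108 and 105. Both MigR1-Cre values of each gene lay below both MigR1 values, and the log2 changes were -1.86 ± 0.12 and -1.68 ± 0.13 (SE, limma adjusted p = 0.00282 and 0.0049). Tceal1 gave 388 and 314 against 144 and 139, and 2810459M11Rik gave 637 and 642 against 270.5 and 270.7. For 2810459M11Rik the arrays of a group nearly coincided, and the pairs gave -1.24 and -1.24. Hemgn, which encodes a nuclear protein of blood cell precursors, gave 459 and 584 against 233 and 252.

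In the class of the T cell receptor complex and its proximal signaling, 3 of 42 measured genes fell and 0 rose. The class median was -0.002 against -0.001 over all named genes, and 16 genes were lower and 17 higher in both pairs. Unadjusted p was under 0.05 for 12 genes, 8 of them lower, where it was for 6.28% of all named genes read at the brightest probe set, 701 lower and 442 higher. Syk, a tyrosine kinase that stands in for its relative Zap70 early in T cell development, gave 344 and 321 with MigR1 and 129 and 128 after MigR1-Cre. Rasgrp1, an exchange factor that loads Ras downstream of diacylglycerol, gave 1186 and 1187 against 662 and 711. Ptpn22, a tyrosine phosphatase that restrains Src family kinases, gave 738.5 and 671 against 458 and 424. All 3 were lower in both MigR1-Cre arrays, and log2 changes were -1.37 ± 0.06, -0.79 ± 0.06 and -0.68 ± 0.07 (SE, limma adjusted p = 0.000584, 0.00531 and 0.0157). Among the members that did not pass, Txk, a Tec family kinase, gave -0.56 and Skap1, an adaptor, gave -0.38, with the same sign in both pairs. Zap70 itself, at 2036 and 1567 against 1828 and 1388, differed more within each group than between groups.

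Related classes held 1 fall each. Of 19 regulators of G protein signaling, Rgs13, which speeds the turning off of G protein alpha subunits, fell, with 311 and 317 in MigR1 and 156 and 177 in MigR1-Cre arrays. Of 83 serine and threonine kinases, Sgk1, a kinase activated downstream of phosphoinositide signals, fell, with 1045 and 1205 against 618 and 719. Of 54 phosphoinositide and lipid phosphate enzymes, Plpp1, which dephosphorylates lipid phosphates, fell by 0.75. Outside the classes, the G protein subunit Gnb4 fell from 1056 in both MigR1 arrays to 747 in both MigR1-Cre arrays, a change of -0.50 in each pair.

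Surface proteins of lymphocytes also appear among the falls. Of 28 costimulatory and inhibitory receptors, 2 fell and 0 rose. The class median was 0.019 over the group means and -0.012 and -0.011 in the pairs, and 7 genes, all lower, had an unadjusted p under 0.05. Icos, a costimulatory receptor of the CD28 family, gave 215 and 218 with MigR1 and 149 and 144 after MigR1-Cre. Cd160, an inhibitory receptor of T and NK cells, gave 260 and 241 against 162 and 172 at the probe set that passed. The groups were separate for both, and the changes were -0.56 and -0.58. Cd52, a short GPI-linked glycoprotein, gave 411 and 355 against 190 and 173, and was the 1 called gene of 22 in its class. Cd53, a tetraspanin of white blood cells, fell by 0.72, 1 of 25 tetraspanins. P2rx7, the ATP-gated channel, fell by 0.54 from a dim level, with 66.6 and 72.8 against 48.5 and 47.4. Trav9d-3, a variable segment of the T cell receptor alpha chain, fell by 0.65, from 283 and 260 to 163 and 184. By limma 0 of 36 TNF receptor and ligand genes, 0 of 53 cytokine receptors and 0 of 29 integrins passed. Of 92 chemokine and other lymphoid G protein-coupled receptors, 0 passed. At an unadjusted p under 0.05 these classes held 3, 5, 1 and 9 genes, where 6.28% of all named genes were. Since 0.258% of all named genes fell and 0.0715% rose, counts of 0 in classes of this size are near the overall share. Without passing, Tnfrsf19, a TNF receptor family member, gave -0.67 ± 0.11, Il2ra, the alpha chain of the IL-2 receptor, gave -0.59 ± 0.10, and the orphan receptor gene Gpr25 gave -0.44 ± 0.07, each lower in both pairs.

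Of 41 E protein, Id and other basic helix-loop-helix genes, Id3 and Id1 fell, which encode proteins that bind E proteins and keep them from DNA. Id3 gave 726 and 605 in MigR1 and 281 and 282 in MigR1-Cre arrays, and Id1 gave 155 and 157 against 105 and 103.5. Of 27 Kruppel-like, EGR and Sp factors, Egr1, an immediate early factor of receptor signaling, fell from 267 and 239 to 150 and 164, and Sp6 fell by 0.65. Of 39 nuclear receptors, Rora, which acts in innate lymphoid cells and in IL-17 producing T cells, fell by 0.70. Of 24 Ets factors, Spib, which is active in B cells and plasmacytoid dendritic cells, rose from 122.5 and 124 to 278 and 217. The Ets class stood with 12 genes higher and 2 lower in both pairs and a median of 0.057, and Ets2 and Etv6, which did not pass, gave 0.41 and 0.34. Of 26 TCF/LEF and other HMG-box genes with Wnt partners, Lef1 alone passed, and Tox gave 0.29 ± 0.06 with limma adjusted p = 0.237. Of 333 genes named Zfp and 95 homeobox genes, 0 passed by limma, and 8 and 3 had an unadjusted p under 0.05.

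Prmt7, an enzyme that monomethylates arginine, fell from a high level, 4726 and 4047 in the MigR1 arrays, to 2338 and 2171 in the MigR1-Cre arrays. It was the 1 called gene of 72 arginine and lysine methyltransferases and demethylases, with a change of -0.96 ± 0.09 (SE, limma adjusted p = 0.00876). Of 79 interferon-induced genes, Ifi202b, whose protein binds DNA, fell from 4627 and 3955 to 2674 and 2614, and Rtp4, a gene that interferon raises, fell by 0.57. The other 77 did not pass, and 36 of the 79 were lower and 15 higher in both pairs. Of 57 metallothionein, glutathione transferase and redox genes, Gstm2 fell, with 252 and 295 against 121 and 140, and Mt2, which binds zinc and copper, rose, with 599 and 614 against 1024 and 1052. Glrx, a glutaredoxin, fell by 0.45. Lamp2 and Cyba, a lysosomal membrane protein and a subunit of the phagocyte oxidase, fell by 0.64 and 0.63.

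Adhesion and matrix genes moved in both directions. Of 43 immunoglobulin-like and neuronal adhesion molecules, Cadm4 and Cntnap2 fell, from 344 and 383 to 168 and 176 and from 524 and 565 to 281 and 313. Of 73 junction genes, Gja1, which encodes connexin 43, fell from 1392 and 1437 to 905 and 877, while Dsp, which encodes the desmosome protein desmoplakin, rose from 1206 and 1151 to 2098 and 2114. Of 85 matrix genes, Lamb1, a laminin chain, fell from 152 and 170 to 89.4 and 89.3, and Fbln2, fibulin 2, rose from 152 and 167 to 273 and 270. Ccn4, a matricellular protein, fell from 119 and 155 to 64.7 and 71.2. In each of these genes the 2 MigR1-Cre arrays lay on the same side of both MigR1 arrays.

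The rises were smaller and spread over classes. Rab44, a large Rab GTPase, gave 395 and 373 with MigR1 and 918 and 723 after MigR1-Cre, the 1 called gene of 59 Rab GTPases and the 1 rise over 2-fold. Cdkn1a, the cell cycle inhibitor p21, gave 410 and 427 against 756 and 761 at its dimmer probe set. Its brighter probe set gave 0.68 ± 0.14, with 1.01 in pair 1 and 0.36 in pair 2, and did not pass. Fgfbp1, which binds fibroblast growth factors, gave 115 and 121 against 221 and 221. Erbb3, a receptor of the EGF receptor family, Aqp11, an aquaporin, and Trnp1 rose by 0.58, 0.52 and 0.49, and Ypel2 rose by 0.61. Of 56 cyclins, cyclin-dependent kinases and inhibitors and of 35 p53 targets, Cdkn1a alone passed. The median of the p53 targets was 0.016, and Gadd45a, a p53 target, gave -0.47 ± 0.07 with limma adjusted p = 0.0888.

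Of the genes that rose, 2 are on the list of B lineage markers, and 1 gene that fell is on the erythroid list. The marker lists were drawn up with earlier results of these data known, so a called gene on a list is no independent result. Spib and Mzb1, an endoplasmic reticulum protein of antibody secreting cells, are 2 of 12 measured B lineage markers. The summed intensity of the 12 was 1144 and 1141 with MigR1 and 1448 and 1380 after MigR1-Cre, and that of the 10 without Spib and Mzb1 was 823 and 820 against 861 and 840. The defining markers Cd79a and Cd79b, Pax5 and Ebf1 stayed between 55.5 and 101 in all 4 arrays, near the median intensity of 90.3 or below it. Hemgn is 1 of 8 erythroid markers, whose sum was 1150 and 1251 with MigR1 and 941 and 932 after MigR1-Cre, and without Hemgn the sum was 691 and 667 against 708.4 and 680 with MigR1-Cre. The globin gene Hba-a1 lay between 69.2 and 72.5. Rora is 1 of 11 NK and innate lymphoid markers, with sums of 3056 and 2910 against 2839 and 2508. Without Rora the sums were 2888 and 2707 against 2729 and 2389. The brightest of these markers, Gata3, is on the T lineage list as well and gave 1523 and 1240 against 1445 and 997.5. None of the 13 myeloid markers passed or exceeded 2 times the median in all 4 arrays.

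Promoter sequences were read for the genes that passed, to show where the letters of the short motif bound by TCF/LEF proteins lie. Windows from 250 bases before to 50 after a RefSeq start (GRCm38.p6) were searched on both strands for CTTTGAA or its like ending in T (CTTTGAT), and for CTTTGTA or its like ending in T (CTTTGTT), none of which contains another. Of the 46 genes that fell besides Lef1, 32 had a window and 8 of these (25.0%) held a motif, against 2232 of 14452 (15.4%) over all measured genes and 1 of 10 (10.0%) among those that rose. A gene can have several windows. Counted by window, the shares were 9 of 46 (19.6%), 2421 of 18109 (13.4%) and 1 of 11 (9.1%). A match describes letters and not binding. The windows before the start of 5 of the 8 genes, those of the largest falls and those with a pair of motifs, are given 5′ to 3′ in the direction of the gene, with the motif, or its reverse complement where it lies on the other strand, in capitals.
Cym, chr3:107221733-107221982 (minus strand): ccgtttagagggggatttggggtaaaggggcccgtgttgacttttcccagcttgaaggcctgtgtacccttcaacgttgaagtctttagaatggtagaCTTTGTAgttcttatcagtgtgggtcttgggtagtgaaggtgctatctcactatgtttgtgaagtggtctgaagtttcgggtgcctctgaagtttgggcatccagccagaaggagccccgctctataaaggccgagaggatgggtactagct
Tceal1, chrX:136707732-136707981 (plus strand): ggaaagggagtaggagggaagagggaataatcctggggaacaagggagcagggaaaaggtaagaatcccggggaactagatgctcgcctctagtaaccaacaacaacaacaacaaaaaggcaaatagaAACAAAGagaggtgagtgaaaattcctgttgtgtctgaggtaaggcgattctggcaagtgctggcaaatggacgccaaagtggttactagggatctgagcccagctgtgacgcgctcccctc
Sgk1, chr10:21978422-21978671 (plus strand): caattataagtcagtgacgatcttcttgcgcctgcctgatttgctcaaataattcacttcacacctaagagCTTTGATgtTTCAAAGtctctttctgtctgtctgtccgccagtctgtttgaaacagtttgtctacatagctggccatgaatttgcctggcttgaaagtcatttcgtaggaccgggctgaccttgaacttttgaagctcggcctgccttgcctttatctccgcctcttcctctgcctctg
Ptpn22, chr3:103860027-103860276 (plus strand): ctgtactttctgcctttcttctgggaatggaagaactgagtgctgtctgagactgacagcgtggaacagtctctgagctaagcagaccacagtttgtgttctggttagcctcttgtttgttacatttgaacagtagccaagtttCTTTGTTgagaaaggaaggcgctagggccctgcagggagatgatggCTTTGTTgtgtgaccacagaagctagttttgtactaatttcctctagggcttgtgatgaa
Cd160, chr3:96814522-96814771 (minus strand): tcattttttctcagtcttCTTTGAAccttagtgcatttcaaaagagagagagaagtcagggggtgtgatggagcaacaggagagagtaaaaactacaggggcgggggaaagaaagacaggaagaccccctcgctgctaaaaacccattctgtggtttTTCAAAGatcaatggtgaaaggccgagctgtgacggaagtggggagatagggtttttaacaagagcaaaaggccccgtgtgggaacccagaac
The first base of the motif lies 152 bases before the start in Cym and 122 in Tceal1. In the Sgk1 window, the second of its windows with a motif, a motif and a reverse complement lie 179 and 170 bases before the start, on opposite strands. In Ptpn22 both copies lie on the strand of the gene, 106 and 60 bases before the start, and in Cd160 they lie 232 and 93 bases before it, on opposite strands. The other 3 genes are Lamp2, P2rx7 and Ripor2.

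The 2 pairs of Lef1F/F arrays were then compared with each other, which asks how far the Cre effect repeats. At all 75 probe sets that passed, both pairs gave the same direction, with a median gap between them of 0.083, a gap over 0.2 at 17, and the largest gap, 0.687, at a probe set without a gene name. Among named genes the gap was largest for Spib, with 1.18 in pair 1 and 0.81 in pair 2. Pair 1 gave the larger change at 49 of the 75 and pair 2 at 26. Since the test uses both pairs, that agreement is partly a condition of passing. A reading that uses 1 pair to choose and the other to measure does not have this condition. Pair 1 alone put 0.273% of all probe sets past -0.5, and in pair 2 every one of these was lower, 76 of them (61.8%) past -0.5, where 0.264% of all probe sets were. Their median was -0.657 in pair 1 and -0.545 in pair 2. Of 35 probe sets past 0.5 in pair 1 (0.0777%), 34 were higher in pair 2 and 17 past 0.5, where 0.0799% of all were. Chosen on pair 2, 113 of 119 lower and 29 of 36 higher probe sets had the same direction in pair 1. The pairs share no array, but all were normalized together.

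**Figure D2:**
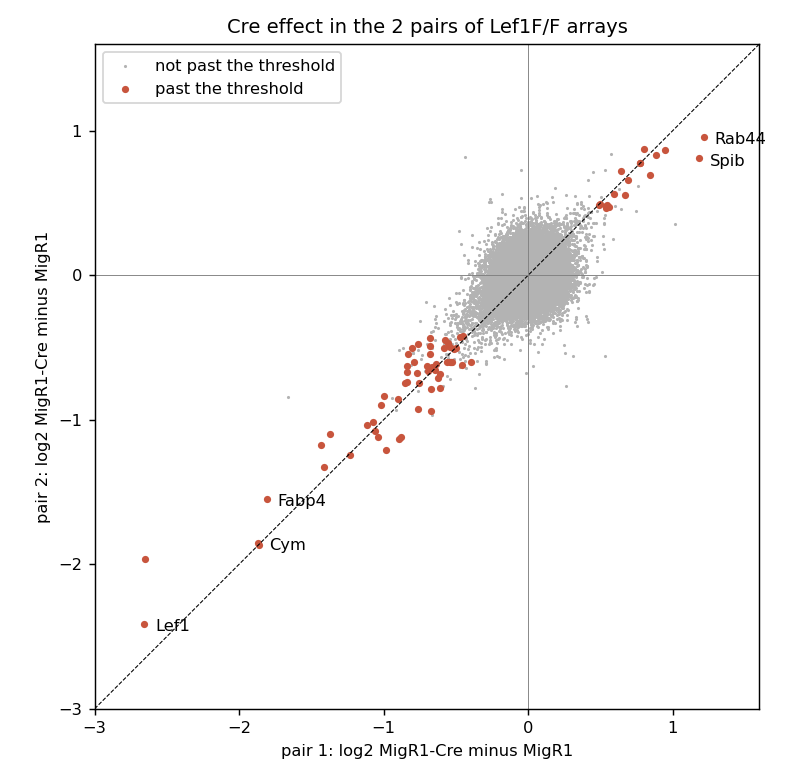
log2 difference of MigR1-Cre minus MigR1 in pair 1 (horizontal) and pair 2 (vertical) at each of 45037 probe sets of the Lef1F/F arrays. Red points passed the limma test, grey points did not, and the dashed line marks equal differences. The red points lie along the line at both ends, and the grey cloud around 0 has little slope.

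Small differences repeated much less. Over all probe sets, 24597 of 45037 (54.6%) had the same direction in both pairs, with r = 0.32 across probe sets, which are not independent and share the normalization. The SD of the differences was 0.123 in either pair. Past 0.5 in both pairs were 93 probe sets in the same direction and 1 in opposite directions. Of the 93, 76 were lower and 17 higher, and 35 had not passed the test.

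Other genes did not pass but did so once a term for the pair was added to the model, and those with the largest changes are given as values. Ctla4, an inhibitory receptor of the CD28 family, gave 2124 and 1745 with MigR1 and 1103 and 967 after MigR1-Cre, with -0.95 and -0.85 in the pairs (limma adjusted p = 0.0903). Mecom, which encodes the zinc finger factor EVI1, gave 528.5 and 726 against 312 and 416, with -0.76 and -0.80. The second array of each group was higher for Mecom and lower for Ctla4, while the difference within a pair stayed nearly equal. Mroh1 gave -0.76 in both pairs, and Stc1, a secreted hormone, gave -0.72 and -0.66. Cyp39a1, an oxysterol hydroxylase, Elavl4, a neuronal RNA binding protein, and Smpd3, a sphingomyelinase, gave -0.82, -0.71 and -0.64 over both pairs. Upward, Pcmtd1 gave 0.57 and 0.84, Tenm1, a teneurin, gave 0.63 and 0.60, and Dhrs3, which reduces retinal, gave 0.76 and 0.62. Ptcra, the pre-T cell receptor alpha chain, gave 1886 and 1608 with MigR1 and 2522 and 2351 after MigR1-Cre, with 0.42 and 0.55. Ramp1, a partner of calcitonin family receptors, gave 0.50 and 0.54. The labels do not say that the arrays are paired.

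Mycn, a transcription factor of the MYC family chosen in the same way, gave lower values with Cre in both leukemia lines. It gave 11049 and 9317 with MigR1 and 7353 and 5481 with MigR1-Cre in the floxed line, and 12653 and 11713 against 6470 and 6640 in the E2a-/- line. The log2 differences were -0.68 ± 0.14 and -0.89 ± 0.14 (SE), and neither passed over all probe sets (limma adjusted p = 0.238 and 1.00). The difference between the lines was 0.22 ± 0.19.

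The first and second arrays of the Lef1F/F line differed from each other at far more genes than Cre changed. In the same model with a term for the pair, 1768 genes were higher (9.72% of those named) and 1481 lower (8.14%) in the second arrays (limma, adjusted p under 0.05). Across probe sets the 2 MigR1 arrays correlated at r = 0.9945 and the 2 MigR1-Cre arrays at r = 0.9943, while the first arrays of both groups correlated at r = 0.9975 and so did the second arrays. Each array was thus closer to the array of its pair than to its replicate. What sets the pairs apart is not given in the labels and was not tested. The largest differences were in Srsf1, a splicing factor, with 595 in the first and 2079 in the second MigR1 array and 611 and 2203 in the MigR1-Cre arrays. Kpnb1, an importin, gave 121 and 375 in the MigR1 arrays and 113 and 372 in the MigR1-Cre arrays. In both genes the second array was the brighter in each group. Rab18, a Rab GTPase, and Eif2s3x, a translation initiation factor subunit, were higher in the second arrays by 1.59 and 1.57, and Ide and Gdi2 by 1.56 each. Lower there were Cad, the enzyme that begins pyrimidine synthesis (-1.04), Srrm2, a splicing matrix protein (-1.04), Ptprf, a receptor phosphatase (-1.02), Cux1 (-1.01), Hdac7, a histone deacetylase (821 and 384 after MigR1, 729 and 388 after MigR1-Cre), and 2610005L07Rik (-1.17). Probe sets of the same gene did not move alike. Of 7 for Srsf1, 1 passed, and they ranged from 0.08 to 1.83, and of 6 for Gdi2, 2 passed, and they ranged from 0.01 to 1.56. Of the 75 probe sets called for Cre, 1 differed between second and first arrays, and it has no gene name.

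**Figure D3:**
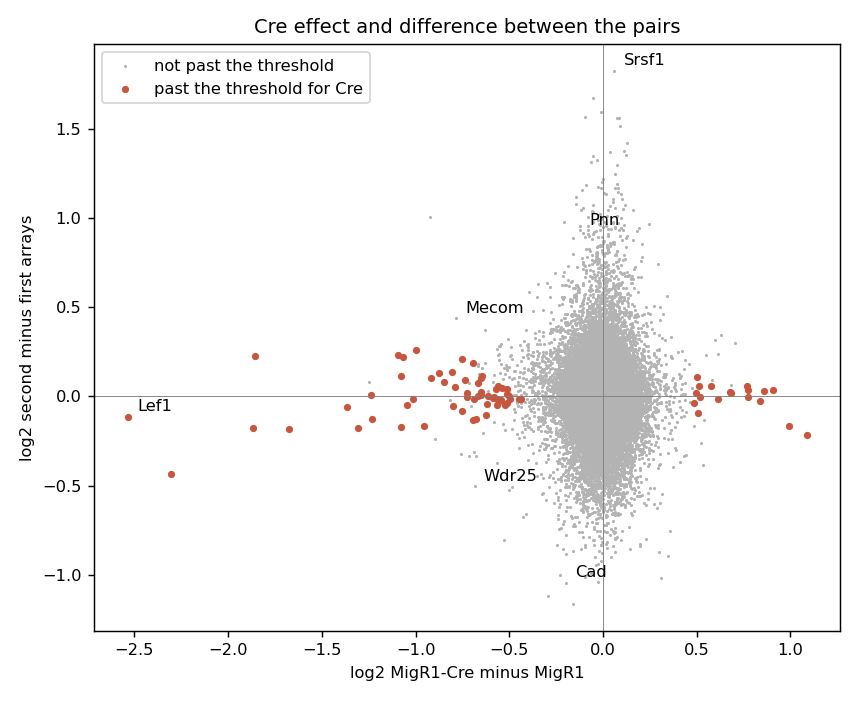
log2 difference of MigR1-Cre minus MigR1 (horizontal) and of the second minus the first arrays (vertical) at each of 45037 probe sets in the Lef1F/F line. Red points passed the limma test for Cre. The red points lie to the left and right at small heights, which is partly a condition of passing. Srsf1 (1.83) and Cad (-1.04) lie far above and below, near 0 on the horizontal axis.

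A few genes above the median intensity went in opposite directions in the 2 pairs. Polr1a, the largest subunit of RNA polymerase I, gave 0.26 in pair 1 and -0.76 in pair 2. Pnn, a splicing and adhesion protein, gave 0.31 and -0.56, and Hspa13, a chaperone, gave 0.41 and -0.32. Prrc2c gave -0.48 and 0.31, Tbc1d15, a Rab GTPase-activating protein, gave -0.26 and 0.53, and Arfgef1, an Arf exchange factor, gave -0.26 and 0.51. For Tbc1d15 the second MigR1-Cre array stood alone, at 275 where the other 3 gave 165 to 198.

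Functional classes were then described by their medians and by how many genes kept 1 direction in both pairs. Over all 18193 named genes, read at the brightest probe set, 30.3% were lower and 27.6% higher in both pairs, and the median was -0.001. Bright probe sets stood lower more often. Of 13775 with a mean above 2 times the median intensity, 62.8% were lower in pair 1 and 52.5% in pair 2. Over all probe sets the shares were 49.4% and 50.0%. Of the 61 classes, 31 held a gene that passed and 30 did not, and 37 of the 60 called genes fell in a class. These counts carry no test of a class, and genes of a class are not independent. The share lower in both pairs was not computed for bright genes alone, so classes of bright genes lack a matched comparison.

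Sterol and fatty acid synthesis gave the lowest class median. Its 34 measured genes had a median of -0.135, with -0.131 in pair 1 and -0.099 in pair 2, and 26 (76.5%) were lower and 2 higher in both pairs. All 34 lay above the median intensity. By limma 0 passed, with 4 genes, all lower, at an unadjusted p under 0.05, and the second arrays were higher than the first at 11 of the 34. Elovl6, a fatty acid elongase, gave -0.43 ± 0.07, and Mvd, which decarboxylates mevalonate diphosphate, gave -0.49 ± 0.14. In the E2a-/- line the class median was -0.028 and 25 genes were lower by the group difference. That count does not ask for both pairs and so is not like the 26. Single genes in the Lef1F/F line ranged from -0.49 to 0.08.

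Genes of protein synthesis and turnover stood lower in smaller steps. Most of them lay above the median intensity, and bright probe sets in general stood lower more often, above all in pair 1. How much of these class shifts goes with brightness was not tested. The 34 aminoacyl-tRNA synthetases had a median of -0.072, with 19 lower and 3 higher in both pairs, and Aars and Yars, the enzymes for alanine and tyrosine, gave -0.25 and -0.21. The 33 genes of the unfolded protein and integrated stress response had a median of -0.079, with 20 lower and 5 higher, and Asns, asparagine synthetase, gave -0.48 ± 0.17. The 46 ribosome biogenesis genes had a median of -0.023, with 26 lower and 5 higher, and the 47 proteasome subunits one of -0.051, with 24 lower and 7 higher. The 76 mitochondrial ribosomal proteins had a median of -0.046, with 41 lower and 2 higher. The last class differed between the pairs, at -0.084 in pair 1 and -0.022 in pair 2, and between second and first arrays, at -0.087, and the part of that difference in its shift was not tested. The 78 respiratory chain and ATP synthase subunits had a median of -0.026, with 33 lower and 8 higher, and -0.114 between second and first arrays. The 50 cytosolic ribosomal proteins, by comparison, had a median of 0.000, with 7 lower and 13 higher. In the E2a-/- line the median was -0.033 for mitochondrial ribosomal proteins, with 52 of 76 lower, and -0.023 for proteasome subunits, with 36 of 47 lower. These 2 counts use the group difference and not both pairs. There it was 0.015 for synthetases, -0.007 for the stress response, -0.01 for ribosome biogenesis and -0.001 for the respiratory chain. By limma 0 genes passed in these 7 classes, and unadjusted p was under 0.05 for 2 synthetases, 4 stress response, 2 biogenesis, 2 proteasome and 3 respiratory chain genes, all lower, and for 0 ribosomal proteins of either kind.

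**Figure D4:**
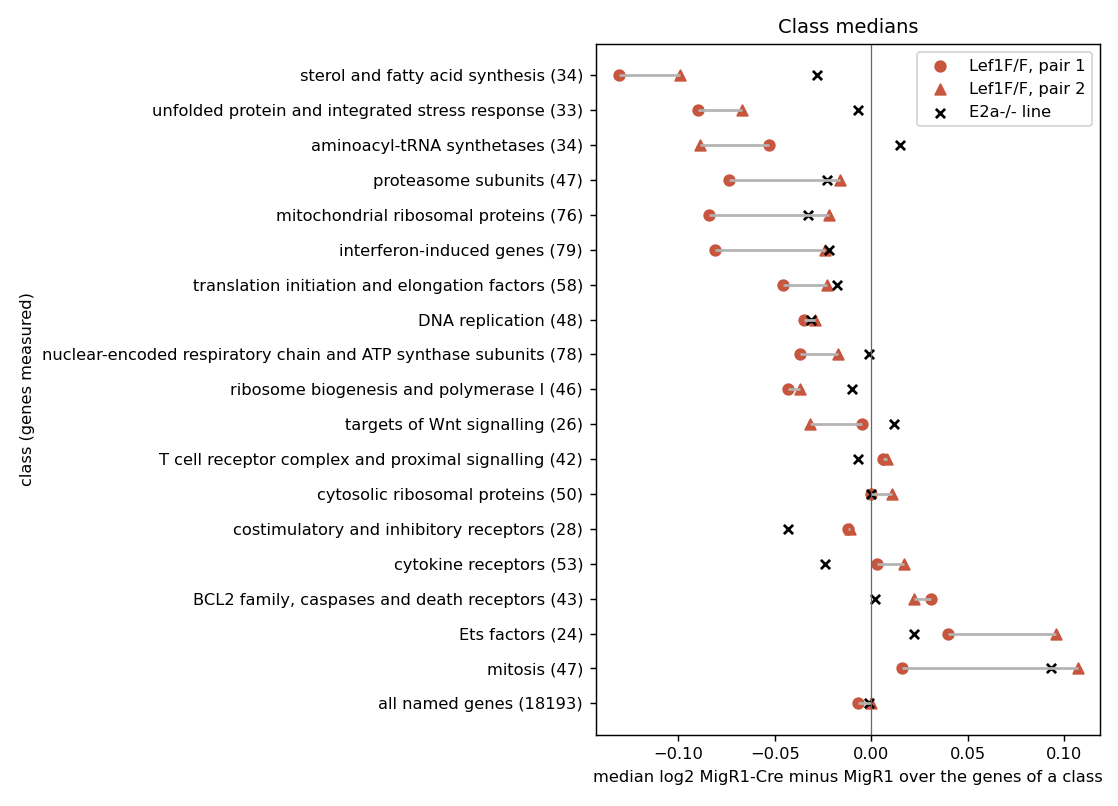
Median log2 difference of MigR1-Cre minus MigR1 (horizontal) over the genes of 18 classes and over all named genes, 1 probe set a gene, with the number of genes in brackets. Red circles are pair 1 and red triangles pair 2 of the Lef1F/F line, joined by a grey line, and black crosses the E2a-/- line. Sterol and fatty acid synthesis lies farthest left, at -0.131 and -0.099, and the E2a-/- cross for mitosis, at 0.093, lies between its 2 pairs.

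Cell cycle classes gave like medians in both lines. The 47 mitosis genes had a median of 0.016 in pair 1 and 0.107 in pair 2, and 23 were higher and 3 lower in both. In the E2a-/- line, where Cre has no floxed Lef1 to cut, the median of the same genes was 0.093. There 4 of 47 were lower by the group difference, a count that does not ask for both pairs. The mitosis genes nearest to passing pointed both ways, with -0.18 for Ncapd2, a condensin subunit, and 0.18 for Bub1b, a checkpoint kinase. The 48 DNA replication genes had a median of -0.033 in the Lef1F/F line and -0.031 in the E2a-/- line, with 26 lower and 10 higher in both Lef1F/F pairs. Among cell death genes of the BCL2, caspase and death receptor class, 18 of 43 were higher and 8 lower in both pairs, 0 passed by limma with 4 at an unadjusted p under 0.05, and Bcl2l11, which encodes the killer protein BIM, gave 0.28 ± 0.07. By limma 0 genes passed in the mitosis and replication classes, and 1 in each had an unadjusted p under 0.05.

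Classes tied to LEF1 biology by their names were read beside all named genes, of which 0.258% fell and 0.0715% rose. Unadjusted p was under 0.05 for 6.28% of all named genes, 701 lower and 442 higher. Of 26 targets of Wnt signaling, Gja1 fell, 11 were lower and 8 higher in both pairs, and the median was -0.015. Unadjusted p was under 0.05 for 7, all lower. Ccnd1, cyclin D1, gave -0.35 ± 0.07 without passing, with -0.36 and -0.33 in the pairs. Of 37 Notch receptors, ligands and targets, 0 passed by limma, 8 had an unadjusted p under 0.05, and 16 were higher and 8 lower in both pairs. Dtx4, a Notch regulator of the Deltex family, gave -0.40 and Ptcra 0.48. Of 30 recombination and immature thymocyte genes, 0 passed by limma with 5 at an unadjusted p under 0.05, and Rag1, the recombinase of receptor genes, gave 7014 and 8852 with MigR1 and 6855 and 8826 after MigR1-Cre, with the second array the higher in each group. Of 345 solute carriers 0 passed by limma with 27 at an unadjusted p under 0.05, and 121 were lower and 78 higher in both pairs. The hedgehog pathway, with 20 genes, had a median of -0.006 and a range of -0.23 to 0.08. A p that misses the threshold in so small a design does not show that a gene was unaffected.

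The E2a-/- line with intact Lef1 gave the same 75 probe sets a median change of 0.067 in size after Cre and a largest of 0.269. In its MigR1 arrays 37 of the 75 lay under 2 times the median intensity. Of the 57 probe sets that fell in the Lef1F/F line, 52 were brighter in Lef1F/F than in E2a-/- MigR1 arrays, and 8 of the 18 that rose were, where 46.7% of all probe sets were. A fall is called more readily from a high MigR1 level, so the count of 52 is partly a condition of passing. The lines differ in more than Lef1. By the limma test of the difference between the Cre effects, 9 of the 75 passed, and the other 66 are not shown by it to differ between the lines.

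Further genes passed. Lhfp, of the tetraspan LHFP family, gave 714 and 677 with MigR1 and 339 and 335 after MigR1-Cre. Mbnl2, a splicing regulator, fell by 0.73, Abcb1b, a drug efflux pump, by 0.65, and Masp1, a protease of the lectin complement pathway, by 0.61. Ctnnd2, a delta catenin, fell by 0.57, Agfg1 by 0.56 and Cpm, a carboxypeptidase, by 0.54. Dixdc1, a DIX domain protein of Wnt signaling, Ncald, a calcium sensor, and Ublcp1, a phosphatase of the proteasome, each fell by 0.51. Ccdc153 rose by 0.51. Both pairs gave the same sign in each. Probe sets of 1 gene mostly pointed the same way. Several probe sets represent 38 of the called genes, of which 30 showed no probe set of the opposite sign, and 10 had at least 2 that passed. The 6 for Gja1 gave -0.67, -0.67, -0.63, -0.55, 0.05 and 0.02, and the last 2 had MigR1 means of 95.7 and 103 where the others had 625 to 1415. The lower of both group means lay at or under 180.6, 2 times the median intensity, at 36 of the 75 probe sets. Without a gene name here are 5 of the 75. The strongest of them gave 477 and 279 with MigR1 and 76.0 and 71.4 after MigR1-Cre, a fall of 2.31 on the log2 scale, and its 2 MigR1 arrays stood well apart.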

How the data were processed

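Total RNA of GFP+ cells was labeled with an Affymetrix 3' kit, which reads transcripts near their end, and hybridized to mouse 430 arrays. The authors normalized the scans with RMA in RMAExpress (version not given in the sources used here), and the deposited table holds linear intensity for 45037 probe sets in 8 arrays, between 35.3 and 25588. RMA makes array distributions alike, which hides any change in RNA content per cell. The study's dChip comparison was not used.

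Groups followed the titles. log2 was taken of the deposited intensity and group means were fitted with limma 3.58.1 (lmFit, eBayes, R 4.3.3) to all 8 arrays, with 4 residual and 3.99 prior degrees of freedom. p-values are two-sided and adjusted by Benjamini-Hochberg over 45037 probe sets, with a threshold of 0.05. The second-against-first comparison added a term for the Lef1F/F pairs. Genes were named only from the 34945 probe sets with 1 symbol, updated through gene identifiers to RefSeq GRCm38.p6 (18032 of 18193 genes matched), and promoter windows came from RefSeq on that build. For class values, a gene was read at its brightest probe set. Values in every array are given for Lef1 and for the genes with the largest changes that passed, class members that passed are named, or else up to 2 with the smallest p, and so are the largest changes that passed only with the pair term, the largest opposite changes and the largest differences between the pairs. The members, lists and rules were chosen with earlier results of these data known. The fit was tested on simulated data. A further gene class is not reported here.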

Additional observations from a re-analysis of the deposited data

Results flagged for a closer look

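Of the 75 probe sets that passed for Cre, 9 differed between the leukemia lines in Cre effect, by the limma test of that difference. The rest of the array is not counted here. Each value is the log2 change in the Lef1F/F line minus that in the E2a-/- line. It was -2.40 ± 0.16 (SE) and -1.82 ± 0.13 for the 2 probe sets of Lef1, which is floxed in 1 line only. It was -1.69 ± 0.17 for Cym, -1.34 ± 0.11 for 2810459M11Rik, and -1.18 ± 0.09 and -1.14 ± 0.10 for 2 probe sets of Syk. It was -1.03 ± 0.10 for Lamb1, -0.89 ± 0.09 for Gja1 and 0.81 ± 0.08 for Cdkn1a. In the E2a-/- line these probe sets gave -0.14 and -0.05 for Lef1, -0.17 for Cym, 0.10 for 2810459M11Rik, -0.19 and 0.13 for Syk, 0.23 for Lamb1 and for Gja1, and 0.05 for Cdkn1a. Adjusted p lay between 0.0149 and 0.0476 (limma). Genotype and line cannot be told apart, and the level after MigR1 differed between the lines, with 344 and 321 for Syk in the Lef1F/F arrays and 80.8 and 86.6 in the E2a-/- arrays.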

How the results depend on the processing

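Each called named gene kept its direction under every alternative that gave it a value, and what changed was how many probe sets passed. Most alternatives leave the log2 difference as it was, and the groups did not overlap at any of the 75 probe sets. Leaving out an array could then not reverse a direction, so the kept directions are no check of the calls. The filter on dim probe sets left 1 of the 60 without a value, and leaving out probe sets that match several transcripts left 6. The 75 calls (57 lower, 18 higher) became 0, 0 and 0 with only the 4 Lef1F/F arrays, 46, 37 and 9 with array weights, 27, 21 and 6 at an adjusted p of 0.01, and 4, 4 and 0 in a test against a fold of 1.5, and trend and robust moderation left 11 higher calls. Leaving out any 1 of the 8 arrays gave 20 to 33 calls, 15 to 25 lower and 4 to 9 higher. A group then has 1 array, which is assumed to vary like the others. The fewest remained without the first Lef1F/F MigR1-Cre array. The labels number no replicates within a group. With the pairs of Lef1F/F arrays as a replicate block, 345 passed (257 lower, 88 higher), all 75 among them, and 194 further genes were called, 141 lower and 53 higher, among them Mycn, Ctla4 and the other genes given as passing only with that term. All 93 probe sets past 0.5 in the same direction in both pairs passed with it, and the difference between the lines passed for 55 of the 75 calls in place of 9. The block in both lines gave 433, 319 and 114, and the block in the 4 arrays alone gave 665, 482 and 183. Each Lef1F/F array correlated best with the array of its own pair, which is a hint from the data and not from the design. Repeated quantile normalization, the filter on dim probe sets, 50 units added before log2, the mean of a gene's probe sets and leaving out probe sets that match several transcripts moved no count by more than 1.5 times. Dim signals limit what can be seen.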
